A study of Homo sapiens with 6 samples.

Results

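HSP90 is an abundant chaperone of the cytosol, and the genes described here are HSP90AA1 and HSP90AB1, which encode its 2 cytosolic forms, together with 8 of its co-chaperones: AHSA1, STIP1, PTGES3, CDC37, FKBP4, FKBP5, PPID and UNC45A. A gene was taken as a member where a locus of the authors' table carried its symbol, and its value in a library is its FPKM (fragments relative to the length of the transcript and to all mapped fragments of the library), added up over every transcript line of that gene in the assembly of that library. The 10 genes matched 10 of the 117001 loci of the table and 10 of the 24140 genes in the 6 assemblies. All 10 passed the filter of a mean of at least 1 FPKM, which left 13023 genes for testing. Total RNA depleted of ribosomal RNA was sequenced from HEK293, an established line from human embryonic kidney. The 3 control libraries came from untreated cells grown at 37 °C, and the 3 heat shock libraries from cells held in a tube at 45 °C for 30 min, then, by the account in the study's text but not by the sample labels, collected after a further 30 min. Nothing in the labels says that the libraries of a group are separate experiments, so a p-value here measures only the spread between these samples. In bulk RNA, less RNA per cell and fewer cells making it cannot be told apart.

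HSP90 works as a dimer that closes around ATP and opens again after hydrolysis, and in this cycle it helps kinases, steroid receptors and many other client proteins to reach or keep an active shape. Co-chaperones load clients, speed up or slow down the cycle, or hold the closed state. HSP90AA1 is the form known as inducible by stress and HSP90AB1 the form made constitutively, and both belong to the genes that the transcription factor HSF1 binds through heat shock elements, which are repeats of the unit GAA in alternating orientation.

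Among the members searched, only the 2 HSP90 genes had matches to heat shock elements in a promoter. In the RefSeq table of GRCh38.p14, another build than the hg19 of the data, 9 of the 10 members had 16 promoters, each read here as the 250 bases before an annotated start (FKBP4 had no entry). Elements of 2 units (GAANNTTC or TTCNNGAA, which read the same on both strands) and of 3 units (GAANNTTCNNGAA or TTCNNGAANNTTC, each the other strand of its partner, and each containing elements of 2 units) were searched. Both kinds were found in 1 promoter of HSP90AA1 (chr14:102087045-102087294, minus strand) and in 1 promoter of HSP90AB1 (chr6:44247693-44247942, plus strand), and in none of the other 14 promoters. These 2 are shown with every element in capitals.
HSP90AA1 promoter: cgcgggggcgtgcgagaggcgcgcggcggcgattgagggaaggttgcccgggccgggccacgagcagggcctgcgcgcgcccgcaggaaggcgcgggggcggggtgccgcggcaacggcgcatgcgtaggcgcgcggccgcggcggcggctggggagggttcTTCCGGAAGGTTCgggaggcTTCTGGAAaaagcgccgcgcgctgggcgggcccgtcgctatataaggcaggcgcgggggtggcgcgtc
HSP90AB1 promoter: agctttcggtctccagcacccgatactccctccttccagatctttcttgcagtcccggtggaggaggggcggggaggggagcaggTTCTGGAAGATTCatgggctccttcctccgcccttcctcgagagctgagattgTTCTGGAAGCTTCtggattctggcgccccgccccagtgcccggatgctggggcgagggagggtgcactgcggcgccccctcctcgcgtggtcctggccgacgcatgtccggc
The HSP90AA1 promoter held the 3-unit element TTCCGGAAGGTTC from 88 to 76 bases before the start and a separate 2-unit element TTCTGGAA from 68 to 61 bases before it. The HSP90AB1 promoter held a pair of 3-unit elements, TTCTGGAAGATTC from 165 to 153 and TTCTGGAAGCTTC from 112 to 100 bases before the start. For scale, 11.6% of the 35116 promoters searched, which are a part of the table, held a 2-unit element and 0.441% a 3-unit element. Among the 14273 of them that belong to genes tested the shares were 8.53% and 0.322%. A match is a string of letters and was not tested as a binding site. Only exact strings were searched, so elements with a changed base or further from a start would be missed. Of 12 heat shock genes of other families, 8 had a 2-unit match in this search. BAG3, HSPA4, HSPE1 and HSPH1 had none, so a promoter without a match may still hold an element. The HSP90AB1 start behind the shown promoter (44247943) lies downstream of its other annotated starts (44246194 and 44247101). Their promoters held no element. In hg19, every HSP90AB1 transcript of the libraries began at 44213903 or 44214695, and these starts were not matched to the promoters.

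The 6 libraries differed in ways that reach every value below. The files hold no read counts, and the depth, known only from the ratio of coverage to FPKM, spanned 1 to 2.03 times that of the shallowest library. Between 28.5% and 61.8% of all FPKM, with each transcript multiplied by its length, fell in annotated transcripts and assembled pieces grouped with their genes. The libraries with the most transcripts of a single exon and no strand (control 1, control 2 and heat shock 3) had the 3 lowest shares. FPKM are relative to everything mapped, so 2 scalings are given throughout: values as deposited, and values divided by a common factor, the median ratio over the 983 genes above 10 FPKM in every library, 5 of which are members. The common factor was 0.938, 0.434 and 0.957 in control 1, 2 and 3 and 2.13, 2.32 and 0.487 in heat shock 1, 2 and 3. It moved the median log2 fold change of all genes tested from 0.45 to -0.21, and the share of higher genes among those at an unadjusted p under 0.05 from 56.3% to 22.9%. Defining genes of the line (VIM, KRT8, KRT18, NEFM, LIN28B and PAX2) were listed in every library, from PAX2 at 0.320 to 4.26 FPKM to VIM at 85.3 to 929 FPKM. PTPRC and CD3E of blood cells reached at most 0.344 and 0.329 FPKM, ALB of liver 0.081 FPKM and PECAM1 of endothelium 0.883 FPKM. COL1A1 of fibroblasts had 3.23 to 4.16 FPKM.

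No difference between heat shock and control was found for HSP90AA1 or HSP90AB1 under either scaling, and the groups overlapped. With each transcript weighted by its length (below), all heat shock libraries lay above all controls for both genes. The adjusted p was then 0.884 for both (limma). As deposited, HSP90AA1 (chr14:102547074-102606086 in hg19, minus strand) had 80.7, 32.4 and 77.3 FPKM in control 1, 2 and 3 and 182, 204 and 45.1 FPKM in heat shock 1, 2 and 3. Heat shock 1 and 2 lay above all controls and heat shock 3 below 2 of them, so the groups overlapped. Divided by the common factor, the same libraries had 86.1, 74.6 and 80.8 against 85.6, 88.0 and 92.6 FPKM, and the means were 80.5 ± 5.77 and 88.7 ± 3.54 (SD, n = 3 each). On this scale heat shock 1 sat just under control 1 and the other heat shock libraries above every control. The log2 fold change of FPKM + 1 was 1.01 (SE 0.96) as deposited and 0.14 (SE 0.095) with the common factor, with adjusted p = 0.710 and 0.912 (limma). The 95% interval of the latter spanned 0.937-fold to 1.30-fold. The deposited value rested on single libraries, at 0.59 without control 2 and 1.70 without heat shock 3 (adjusted p = 0.983 and 0.0791, limma).

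HSP90AB1 (chr6:44211280-44225283, plus strand) was the most abundant member in all 6 libraries, with 233, 87.4 and 221 FPKM in the controls and 487, 511 and 107 FPKM after heat shock, as deposited. The common factor brought the libraries to 249, 201 and 231 against 228, 221 and 219 FPKM, and the 3 heat shock values then lay inside the range of the controls. The group means were 227 ± 24.2 and 223 ± 4.90 FPKM (SD, n = 3 each). The log2 fold change was 0.85 (SE 0.96) as deposited and -0.02 (SE 0.098) with the common factor, with adjusted p = 0.710 and 0.963 (limma), and the interval of the latter spanned 0.833-fold to 1.16-fold. As deposited it was 0.39 without control 2 and 1.59 without heat shock 3 (adjusted p = 0.983 and 0.0837, limma).

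**Figure D1:**
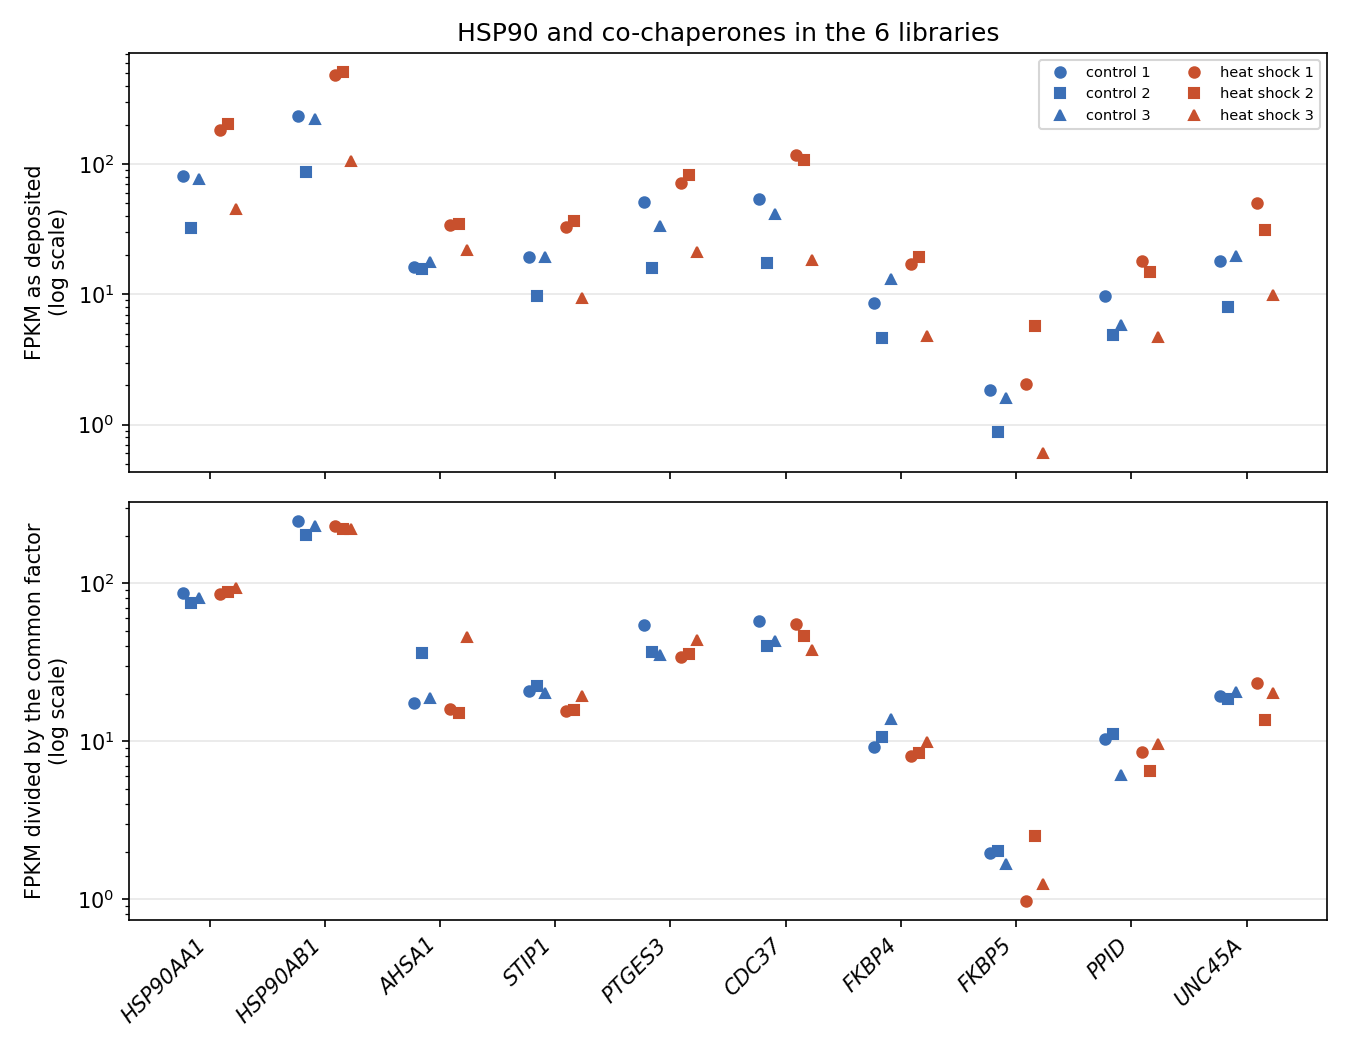
FPKM of the 10 genes in each of the 6 libraries (log axes), as deposited above and divided by the common factor below, with controls in blue, heat shock in red and a marker shape for each replicate number. As deposited, heat shock 3 sits with the controls for most genes; after division, HSP90AB1 spans 201 to 249 FPKM in all 6 libraries, while AHSA1 in control 2 and heat shock 3 stands at 36.0 and 45.4 FPKM.

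Among the co-chaperones that act on the cycle itself, AHSA1, the activator of the HSP90 ATPase, was the one member whose heat shock libraries all lay above all controls as deposited, an order that 3.71% of all genes tested shared. It had 16.3, 15.6 and 17.8 FPKM in the controls and 34.1, 35.0 and 22.1 FPKM after heat shock, with a log2 fold change of 0.81 (SE 0.75, adjusted p = 0.710, limma). The order did not hold with the common factor, where AHSA1 had 17.4, 36.0 and 18.6 against 16.01, 15.1 and 45.4 FPKM and a log2 fold change of -0.02 (SE 0.50). The 2 high libraries were those in which a short assembled piece at the 3′ end carried most of the value: a 530-base piece with 11.8 FPKM in control 2 and a 430-base piece with 14.4 FPKM in heat shock 3. Assembled transcripts made up 75.3% and 81.0% of AHSA1 FPKM in these 2 libraries. A short piece adds its whole FPKM to the sum, so each transcript was also weighted by its length relative to the longest annotated transcript. Weighted in this way and divided by the common factor, AHSA1 stood at 17.0, 18.99 and 16.7 against 15.9, 15.0 and 22.3 FPKM. PTGES3, the p23 protein that holds HSP90 in its closed state, had 51.1, 15.9 and 33.6 FPKM in the controls and 72.5, 82.5 and 21.1 FPKM after heat shock. On the common factor scale all libraries lay between 34.0 and 54.5 FPKM, the groups overlapped, and the log2 fold change was -0.13 (SE 0.21). UNC45A, a co-chaperone known for the folding of myosin, had 18.1, 8.01 and 19.7 against 50.01, 31.3 and 9.83 FPKM as deposited and 13.5 to 23.5 FPKM in all libraries with the common factor. Its value rests almost wholly on assembled pieces, which held 92.3% to 100% of it and most of which cover the 3′ end of the gene. The annotated transcripts of UNC45A summed to at most 2.38 FPKM and were listed at 0 in heat shock 1, and GENCODE places an antisense RNA over the 3′ end. Without strand in the protocol, reads of the 2 cannot be told apart.

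STIP1, the adaptor that joins HSP70 to HSP90 and hands over clients, had the lowest fold change of the members with the common factor. As deposited it had 19.3, 9.66 and 19.4 FPKM in the controls and 32.8, 36.6 and 9.40 FPKM after heat shock. Divided by the common factor these became 20.6, 22.2 and 20.3 against 15.4, 15.8 and 19.3 FPKM, so that all heat shock libraries lay below all controls, as for 5.38% of all genes tested. The log2 fold change was -0.31 (SE 0.145) with adjusted p = 0.912 (limma), an interval of 0.630-fold to 1.03-fold, and with weighting by length the groups overlapped. CDC37, which brings kinases to HSP90, had 53.9, 17.4 and 41.4 FPKM in the controls and 118, 107 and 18.4 FPKM after heat shock. Divided by the common factor it stood at 57.5, 40.0 and 43.2 against 55.2, 46.3 and 37.8 FPKM, overlapping groups with a log2 fold change of -0.01 (SE 0.20). Assembled pieces that Cufflinks grouped with CDC37 and the microRNA gene MIR1181 together were counted to neither gene.

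The 3 prolyl isomerases that sit on HSP90 in steroid receptor complexes also overlapped between the groups. FKBP4, which favours receptor activity, had 8.56, 4.63 and 13.2 FPKM in the controls and 17.2, 19.4 and 4.80 FPKM after heat shock. PPID, the cyclophilin of these complexes, had 9.70, 4.84 and 5.85 against 18.2, 14.9 and 4.67 FPKM. FKBP5, which dampens the glucocorticoid receptor, was the least abundant member in every library, with 1.84, 0.880 and 1.60 against 2.07, 5.77 and 0.609 FPKM. As deposited, heat shock 1 and 2 lay above all controls for all 3 genes, and heat shock 3 lay below every control for PPID and FKBP5 and below 2 of them for FKBP4. Divided by the common factor, FKBP4, PPID and FKBP5 had log2 fold changes of -0.31 (SE 0.21), -0.13 (SE 0.28) and -0.21 (SE 0.31), and control and heat shock values overlapped for each.

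Taking the 10 genes as a list, 0 of 10 were called at an adjusted p under 0.05 and more than 2-fold under either scaling, where limma called 0.023% of all genes tested as deposited and 0% with the common factor. At an unadjusted p under 0.05 the count was also 0 of 10, against 3.69% and 3.23% of all genes. The adjusted p of the members lay between 0.710 and 0.742 as deposited and between 0.912 and 0.992 with the common factor. As deposited, 10 of 10 members had a positive log2 fold change, with a median of 0.75, beside 73.0% of all genes and their median of 0.45. After division by the common factor, 1 of 10 was positive, with a median of -0.09, beside 28.2% of all genes and their median of -0.21. The sign of the list thus followed the sign of all genes under each scaling. No member had all its heat shock libraries above all controls with the common factor, an order found for 2.01% of all genes. With weighting by length, HSP90AA1 (72.9, 64.1 and 70.6 against 73.7, 75.6 and 79.1 FPKM) and HSP90AB1 (205, 189.9 and 201 against 214, 209.7 and 206 FPKM) took this order, as did 1.51% of genes, with log2 fold changes of 0.14 (SE 0.068) and 0.08 (SE 0.047) and adjusted p = 0.884 for both (limma).

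**Figure D2:**
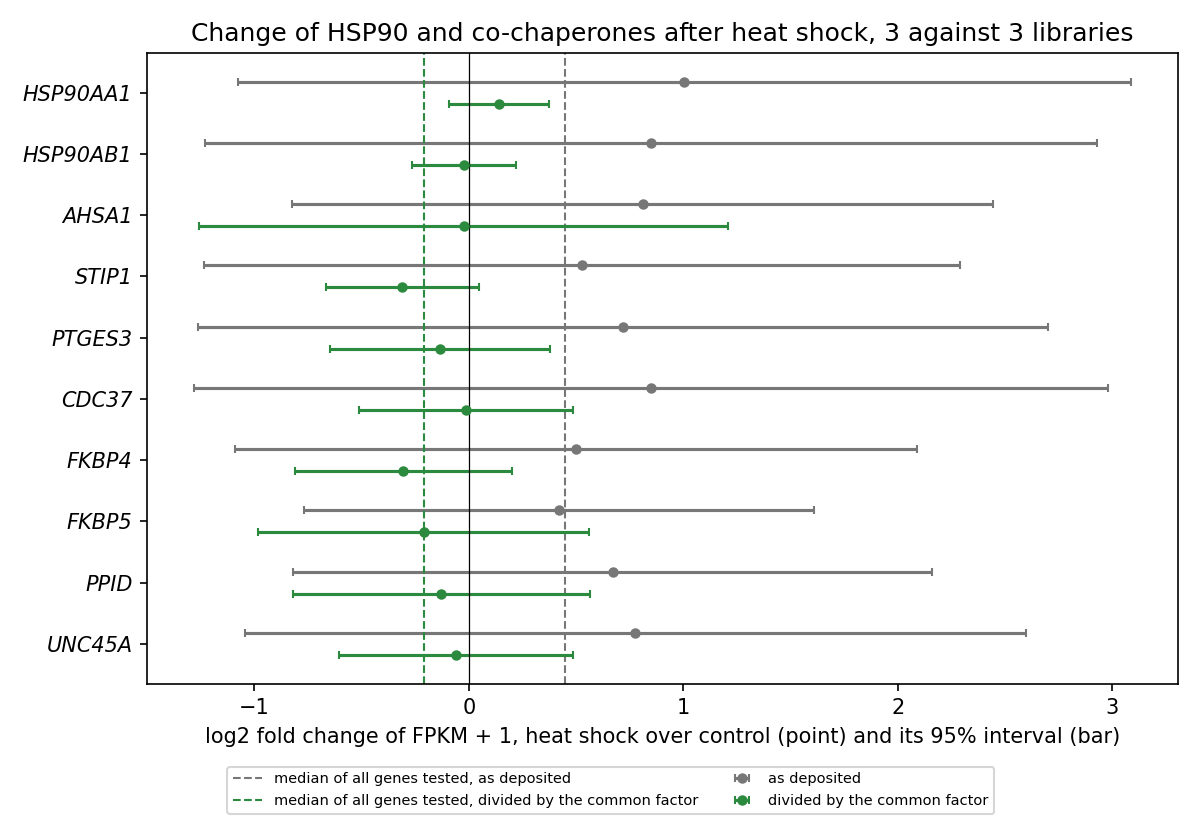
Log2 fold change of FPKM + 1 (horizontal axis, heat shock over control, 3 libraries each) with its 95% interval for each member, as deposited in grey and divided by the common factor in green, with dashed lines at the median of all genes tested. Every interval includes 0; the grey points run from 0.42 to 1.01 and the green points from -0.31 to 0.14.

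FPKM allow the levels of the members to be compared per length. HSP90AB1 ranked 1, HSP90AA1 2, PTGES3 4 and FKBP5 10 in all 6 libraries. The other places changed between libraries: CDC37 had rank 3 except in heat shock 3, where it had rank 5 and AHSA1 rank 3, and AHSA1, STIP1 and UNC45A traded ranks 5 to 7 in the others. With the common factor, the control libraries spanned 201 to 249 FPKM for HSP90AB1 and 74.6 to 86.1 FPKM for HSP90AA1, with no overlap between them or with CDC37 at 40.0 to 57.5 FPKM. CDC37 and PTGES3 (35.2 to 54.5 FPKM) overlapped. Below them, STIP1 (20.3 to 22.2 FPKM), UNC45A (18.4 to 20.6 FPKM) and AHSA1 (17.4 to 36.0 FPKM) overlapped with each other, as did FKBP4 (9.13 to 13.8 FPKM) and PPID (6.12 to 11.1 FPKM). FKBP5 stood apart at 1.67 to 2.03 FPKM. The place of UNC45A depended on its assembled pieces. Weighted by length, it had 8.70, 7.56 and 7.06 FPKM in the controls and 6.56, 6.26 and 9.61 FPKM after heat shock on this scale, and it ranked between 7 and 9 with FKBP4 and PPID.

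A ratio of 2 genes within a library does not depend on how the libraries are scaled, and it was used to ask whether the inducible form gained on the constitutive one. HSP90AA1 over HSP90AB1 was 0.346, 0.371 and 0.349 in control 1, 2 and 3 and 0.375, 0.398 and 0.422 in heat shock 1, 2 and 3. All 3 heat shock libraries lay above all 3 controls, by a narrow gap between control 2 and heat shock 1. The means were 0.355 ± 0.014 and 0.399 ± 0.024 (SD, n = 3 each), 1.12-fold apart, with p = 0.1 in an exact two-sided permutation test, the smallest that 3 against 3 libraries allow, and adjusted p = 0.6 over 9 ratios. The order was lost with FPKM weighted by length, at 0.355, 0.338 and 0.352 against 0.344, 0.361 and 0.384 (exact permutation p = 0.4). With annotated transcripts alone the value for heat shock 1 was 2.20, since 82.9% of HSP90AB1 FPKM in that library lay in 1 assembled transcript of 12 exons. The authors' pooled values gave a ratio of 0.338 for control and 0.322 for heat shock, which is the opposite order.

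The amount of each co-chaperone per HSP90 was compared as its FPKM over the sum of HSP90AA1 and HSP90AB1 in the same library. CDC37 stood at 13.8% to 17.2% in the controls and 12.1% to 17.6% after heat shock, and PTGES3 at 11.3% to 16.3% and 10.8% to 13.9%. STIP1 was 6.15%, 8.07% and 6.49% against 4.91%, 5.12% and 6.19%, where heat shock 3 overlapped the controls by a small margin. FKBP4 was 2.72%, 3.86% and 4.42% against 2.57%, 2.71% and 3.17%. The log2 differences for STIP1 and FKBP4 were -0.35 and -0.36, each with exact permutation p = 0.2 and adjusted p = 0.6. FKBP5 was the smallest share, at 0.535% to 0.735% in the controls and 0.309% to 0.806% after heat shock. All 8 ratios had a mean log2 difference below 0, from -0.04 for CDC37 to -0.40 for FKBP5, and in all 8 the groups overlapped. The 8 share a denominator and so are not independent. Weighted by length, all 8 were again below 0 and PTGES3 no longer overlapped, at 13.5%, 14.3% and 13.1% against 11.7%, 12.4% and 12.8% (exact permutation p = 0.1, adjusted p = 0.6). With annotated transcripts alone, 2 of the 7 ratios that could be computed were below 0.

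**Figure D3:**
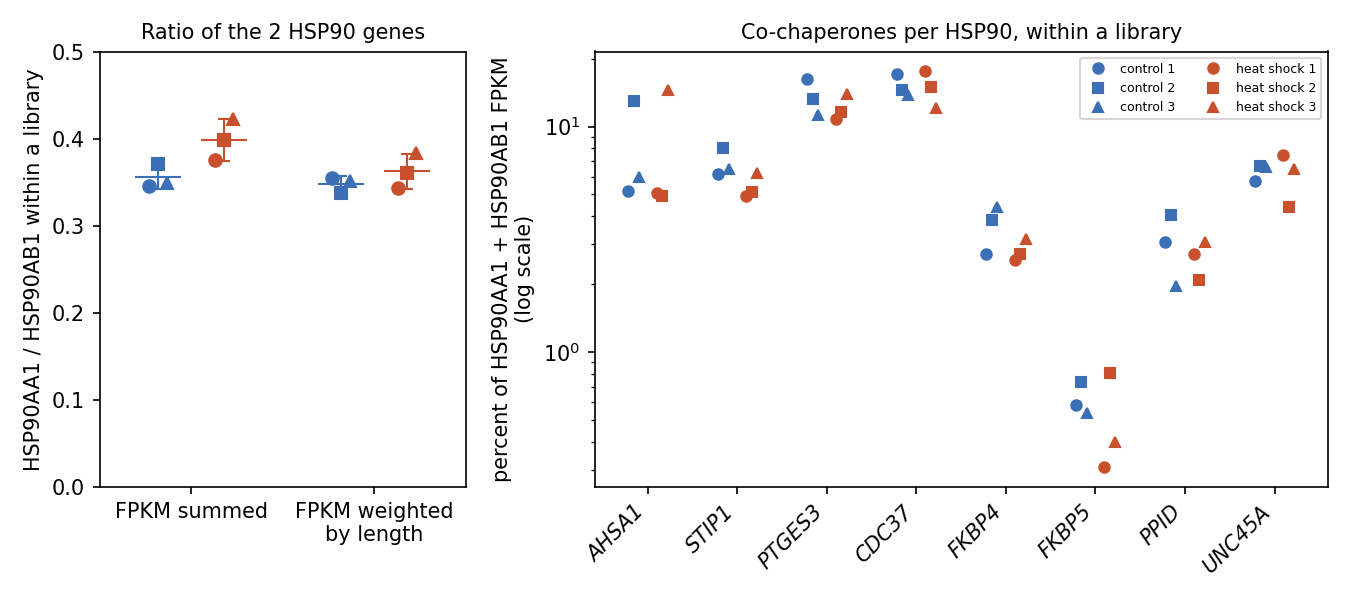
Left, HSP90AA1 over HSP90AB1 in each library with FPKM summed or weighted by length, with the mean and SD of each group (n = 3); right, each co-chaperone as a percent of the 2 HSP90 genes in the same library (log axis). The summed ratio separates 0.346 to 0.371 in controls from 0.375 to 0.422 after heat shock, while the weighted ratios and all summed co-chaperone ratios overlap.

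Of the 4 members with more than 1 annotated transcript, HSP90AA1 used a single one, the shorter of its pair with 11 exons, in all 6 libraries, and the longer transcript was listed at 0. For FKBP5 the main transcript held 82.2%, 0% and 80.9% of annotated FPKM in control 1, 2 and 3 and 100% in each heat shock library. The groups did not overlap (exact permutation p = 0.1, adjusted p = 0.3), but the other transcripts that made up the controls were each under 0.5 FPKM. HSP90AB1 divided its FPKM between several overlapping transcripts. Assembled ones held 36.5%, 0% and 40.5% of its FPKM in control 1, 2 and 3. In heat shock 1, 2 and 3 they held 82.9%, 0% and 0%. Of the annotated FPKM alone, the main transcript held 52.9%, 71.1% and 53.1% against 0%, 54.7% and 65.0%. These groups overlapped (exact permutation p = 0.6, adjusted p = 0.9), as did those of UNC45A, whose annotated transcripts are nearly empty (exact permutation p = 1).

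Past the 3′ end of HSP90AA1, transcripts were assembled in all heat shock libraries at places where the controls had few or none, a pattern chosen for description after its values were seen. In the 5 kb downstream (chr14:102542075-102547074 in hg19), which holds no other gene but a 7SL pseudogene in GENCODE, the mean FPKM per base divided by the common factor was 0.218, 0 and 0 in control 1, 2 and 3. It was 1.88, 1.497 and 2.02 in heat shock 1, 2 and 3. How much of these values came from the pseudogene was not tested. Of 1440 such windows free of other genes, 7 (0.486%) had all heat shock libraries above all controls, and 1.46% had them all below. Free of other genes here means without another annotated transcript in the assemblies, so genes listed only in GENCODE were not excluded. Any transcript was listed in 27.0% to 50.6% of these windows in the controls and in 19.9%, 26.2% and 45.6% in heat shock 1, 2 and 3, so heat shock 1 and 2 were the libraries with the fewest.

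The assembled transcripts past HSP90AA1 had 1 exon and no strand, and fell at like distances in the 3 heat shock libraries. The far one lay 2016 to 2363 bases past the end with 37.0 FPKM in heat shock 1 (Cufflinks 95% interval 27.6 to 46.4), 2041 to 2418 bases past it with 32.3 FPKM in heat shock 2 (24.6 to 40.1), and 2030 to 2354 bases past it with 11.1 FPKM in heat shock 3 (6.12 to 16.02). A near one started 669 to 745 bases past the end, with 9.47, 4.56 and 3.10 FPKM, and a middle one was listed with 8.11 FPKM in heat shock 1 and 6.82 FPKM in heat shock 2. Control 1 listed 1 transcript, from 1858 to 2328 bases past the end with 2.17 FPKM, overlapping the place of the far one, and control 2 and 3 listed none. A transcript under the level that Cufflinks lists would not be seen. In control 1, 2 and 3, 95% of listed single-exon transcripts of 325 to 378 bases were above 3.12, 3.43 and 6.26 FPKM, or 3.32, 7.88 and 6.54 FPKM after division by the common factor. The far transcript at 17.4, 13.97 and 22.7 FPKM on that scale was above these limits, while the near one, at 4.45, 1.97 and 6.36 FPKM, was not clearly above the corresponding limits of its length (2.17, 5.17 and 4.25 FPKM).

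**Figure D4:**
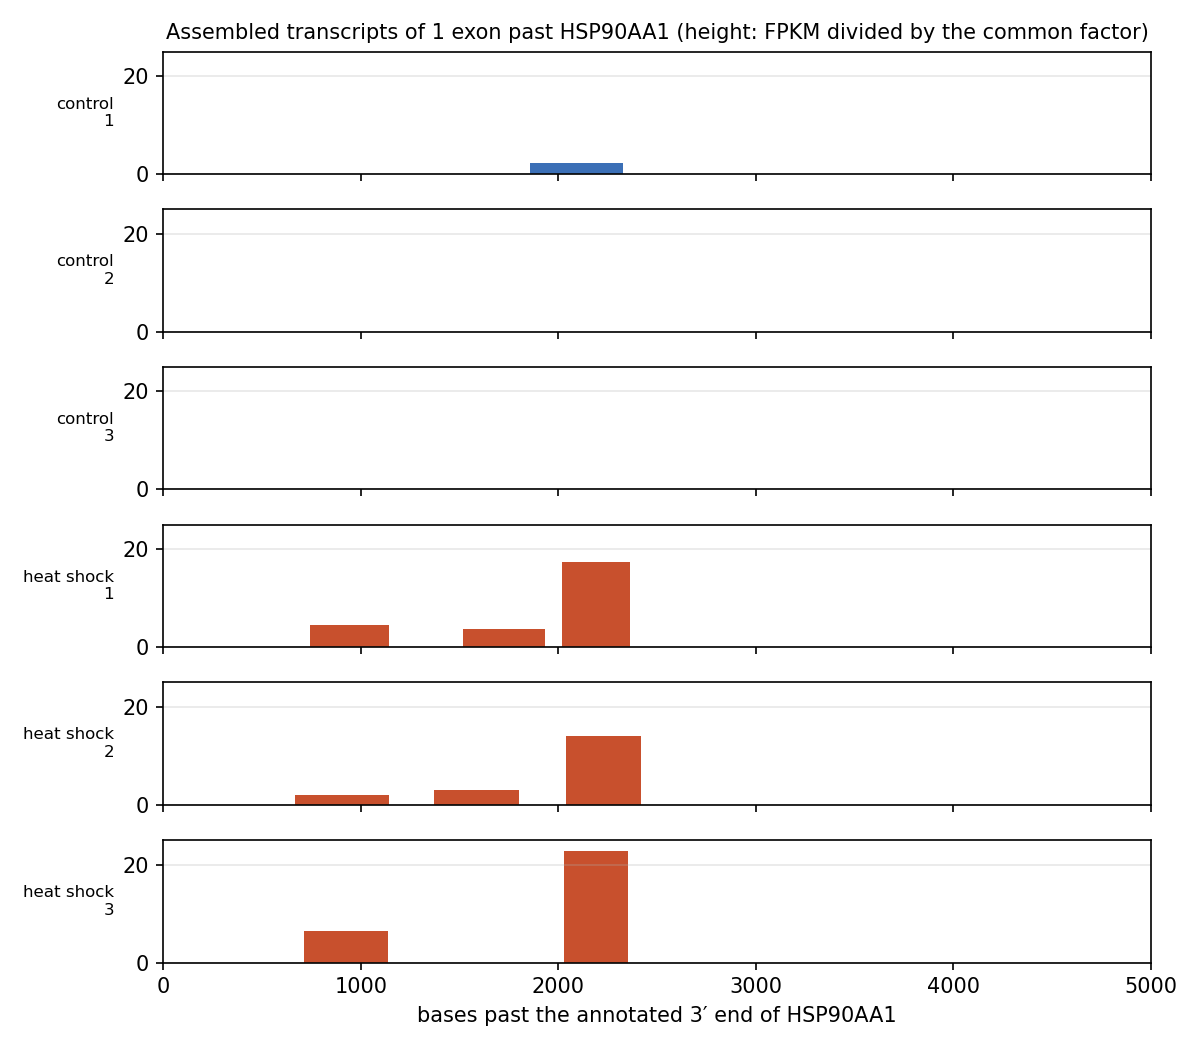
Assembled single-exon transcripts in the 5000 bases past the annotated 3′ end of HSP90AA1, 1 panel per library, with the distance in bases on the horizontal axis and FPKM divided by the common factor as bar height. Each heat shock library has a bar starting between 2016 and 2041 bases past the end, at 17.4, 13.97 and 22.7, and a lower bar nearer the gene; control 1 has a single low bar at 2.31 and control 2 and 3 have none.

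The stretches common to all 3 heat shock libraries were 392 bases (near) and 314 bases (far) long. The near stretch is shown because its sequence bears on where the reads can come from, as 300 bases on the strand of HSP90AA1 from GRCh37 (chr14:102546031-102546330). Every 25-base string in it occurs once as an exact match on the autosomes and sex chromosomes, so no part is set in capitals. The authors' alignment allowed 3 mismatches, and inexact copies were not searched for either stretch. Reads from such copies are therefore not excluded.
HSP90AA1 near stretch: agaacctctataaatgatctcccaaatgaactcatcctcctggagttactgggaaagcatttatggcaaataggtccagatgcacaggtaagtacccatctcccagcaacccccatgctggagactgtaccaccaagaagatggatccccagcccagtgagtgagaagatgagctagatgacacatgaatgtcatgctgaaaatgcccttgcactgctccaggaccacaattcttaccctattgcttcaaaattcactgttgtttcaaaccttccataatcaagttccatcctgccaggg
In the far stretch 63.8% of the 290 strings of 25 bases occurred once, and its start is repeat sequence, with 1 string found 29655 times. Reads from other copies of the repeat were not separated by the files. Whether the far stretch lies on the pseudogene in the window downstream of HSP90AA1 was not tested. Whether the far transcript is RNA of HSP90AA1 was not tested either. No AATAAA or ATTAAA, the common polyadenylation signals, was present in either stretch. Among the other members, the downstream windows of CDC37, FKBP4 and PTGES3 were free of other genes and did not have all heat shock libraries above all controls.

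Other genes of the HSP90 system were compared from lists. Of 25 further co-chaperones and HSP90 paralogues 22 were tested and 0 were called. With the common factor none was higher at an unadjusted p under 0.05 (0.737% of all genes were) and 2 were lower (2.49% of all genes), namely HSP90B1, the HSP90 of the endoplasmic reticulum, and FKBP8, an isomerase of the mitochondrial membrane. HSP90B1 had 34.7, 32.4 and 28.4 FPKM in the controls and 22.8, 11.3 and 17.6 FPKM after heat shock on this scale, a log2 fold change of -0.89 (SE 0.26, adjusted p = 0.912, limma), and -0.05 as deposited. FKBP8 had 13.7, 15.98 and 13.4 against 4.25, 6.82 and 9.88 FPKM, the lowest fold change of the list (-1.002 on the log2 scale, SE 0.30). The highest was TELO2, an adaptor for large kinases of the PI3K-related family, at 0.85 (SE 0.38), and the median was -0.03. Of the 22, HSP90B1 and FKBP8 had all heat shock libraries below all controls (5.38% of all genes). NUDCD2 and CACYBP had them all above (2.01% of all genes), CACYBP with 24.3, 23.6 and 25.2 against 29.7, 28.5 and 29.3 FPKM. No client was called. All 17 genes of the list of client kinases and HSF1 were tested, the median was -0.12, and the values ran from -0.67 for CHUK to 0.96 for BRAF. Of 5 steroid receptors only NR3C1, the glucocorticoid receptor, passed the filter, with a log2 fold change of 0.06 (SE 0.28).

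Heat shock genes of other families gave a reference for the response in the same libraries. Of 12 listed, 11 were tested, 0 were called, 5 were higher at an unadjusted p under 0.05 with the common factor (0.737% of all genes were), and 6 had all heat shock libraries above all controls (2.01% of all genes), with a median log2 fold change of 0.35. DNAJB1, an HSP40 partner of HSP70, had 7.81, 11.1 and 9.59 FPKM in the controls and 56.7, 50.2 and 69.8 FPKM after heat shock, the highest log2 fold change of the list at 2.51 (SE 0.19, adjusted p = 0.132, limma). HSPA4, an exchange factor of HSP70, was lowest at -0.12 (SE 0.13). HSPA8, the constitutive HSP70, had 100.02, 100.01 and 93.6 against 120.0, 129 and 121 FPKM, a log2 fold change of 0.33 (SE 0.081), next to 0.14 for HSP90AA1. Of the 12 genes, 8 had a 2-unit heat shock element in at least 1 of their promoters and 3 a 3-unit element. Over all promoters searched the shares were 11.6% and 0.441%, but these are per promoter, and DNAJB1 and HSPD1 had 3 and 2 promoters. Whether a match goes with the change of a gene was not tested.

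The authors' table gives 1 pooled FPKM per group and locus. For the members these pooled values were 3.18 to 4.93 times higher in heat shock than in control, with HSP90AB1 at 249 and 1227 FPKM, HSP90AA1 at 84.2 and 395 FPKM and FKBP5 at 3.27 and 10.4 FPKM. The ratio of the means of the 3 libraries, as deposited, was 1.57 to 2.26 for the same genes. The table holds no value for single libraries, so the spread behind its pooled values is unknown. The same ratio was not computed over all loci of the table, so the pooled values of the members are not set against a general shift.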

How the data were processed

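RNA from 3 control and 3 heat shock samples of HEK293 was analysed, and all 6 libraries were used, grouped by their labels. Per the labels and the study's methods, the authors trimmed reads with Trimmomatic 0.3.0 after FastQC 0.10.1, aligned them to hg19 with TopHat2 (3 mismatches allowed) and assembled each library with Cufflinks 2.0.2, which gave the deposited FPKM of each transcript. A pooled table from Cuffdiff, also deposited, holds FPKM per group, and its fold changes and p-values were not used.

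FPKM were summed per gene and library. Of 40803 annotated transcripts 96.7% took a symbol through their RefSeq entry, and assembled transcripts that Cufflinks placed with several genes were left out. Genes averaging 1 FPKM or more entered limma 3.58.1 (R 4.3.3; lmFit, eBayes with a trend) on log2(FPKM + 1), a scale that understates changes of low genes. P-values were adjusted by Benjamini-Hochberg over all genes tested, and calls needed an adjusted p under 0.05 and over 2-fold. The test was tried on simulated data. Ratios and shares used exact permutation tests in scipy 1.17.1. Windows downstream of genes above 10 FPKM, each 5 kb, were compared by order alone. Depth is known only in relative terms, and Cufflinks intervals cover counting and assignment, not the spread between cultures. Promoters came from RefSeq (GRCh38.p14), and the gene overlaps named in the text from GENCODE 44 on GRCh37. Windows free of other genes were chosen by the annotated transcripts of the assemblies. Members, lists and the common factor were chosen with earlier results of these data known. All members were named, from each list the highest and lowest gene by the common factor fit and any called gene; HSP90B1, NUDCD2, CACYBP, HSPA8 and the downstream window were named after their values were seen. Alternatives were other pseudocounts, filters, scalings, transcript sets, weighting by length (added later), a replicate block and leaving out each library. A marker gene and a sequence are not reported here.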

Additional observations from a re-analysis of the deposited data

How the results depend on the processing

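The count of members called was 0 under every alternative run and both scalings. The count of all genes called as deposited was 3, and became 476 with the p-value unadjusted, 0 with no minimum FPKM and 1 with eBayes without a trend, with annotated transcripts alone, with median-of-ratios factors over all genes tested or when rescaled to TPM. It ran from 0 (without control 2) to 16 (without heat shock 3) when a library was left out, being 6, 5, 9 and 6 without control 1, control 3, heat shock 1 and heat shock 2. With the common factor the count of 0 became 267 with the p-value unadjusted. The replicate block, with the same-numbered libraries as pairs, gave 17 genes called as deposited in place of 3 and changed no call of a member. Same-numbered libraries did not deviate together (correlations of 0.03, -0.33 and -0.38 as deposited), and control 2 went best with heat shock 3 (0.44), so the numbers were not taken as pairs. With the replicate block, HSP90AA1 over HSP90AB1 stayed 0.165 on the log2 scale, positive in 3 of 3 pairs, where the smallest paired p is 0.25. Leaving out a library gave 0.122 to 0.208.

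As deposited, log2 fold changes turned negative for STIP1, FKBP4 and FKBP5 with median-of-ratios factors (-0.0404, -0.048 and -0.0161) and on rescaling to TPM (-0.15, -0.16 and -0.10), and FKBP5 ran from -0.11 to 0.92 when a library was left out. The other deposited values stayed positive when a library was left out but moved widely, by over 1.5 times except for AHSA1 (0.70 to 1.02). HSP90AA1 ran from 0.59 to 1.70, HSP90AB1 from 0.39 to 1.59, CDC37 from 0.38 to 1.70, UNC45A from 0.29 to 1.41, PTGES3 from 0.27 to 1.33, PPID from 0.33 to 1.21, STIP1 from 0.19 to 1.12 and FKBP4 from 0.15 to 1.08. Each was highest without heat shock 3, where the adjusted p of the 10 members lay between 0.0791 and 0.127 (limma). With the common factor, log2 fold changes turned positive with annotated transcripts alone for AHSA1 (0.10), STIP1 (0.32), FKBP4 (0.12) and PPID (0.16). A term for the 3 libraries with the most unstranded transcripts gave 0.29 for AHSA1 and 0.0472 for PPID, and weighting by length 0.0808 for HSP90AB1 and 0.0413 for PPID. Leaving out a library took HSP90AB1 from -0.11 to 0.0442, PTGES3 from -0.24 to 0.062, CDC37 from -0.15 to 0.14, AHSA1 from -0.51 to 0.30, PPID from -0.37 to 0.0178 and UNC45A from -0.22 to 0.16. None of these values was called, and the cause of the changes was not tested.

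Of the co-chaperone ratios, all 8 were below 0, against 2 with annotated transcripts alone and 6 to 8 when a library was left out. Annotated transcripts alone gave 0.20 for AHSA1, 0.44 for STIP1, 0.0854 for CDC37, 0.23 for FKBP4 and 0.28 for PPID on the log2 scale. Leaving out a library took AHSA1 from -0.56 to 0.36, CDC37 from -0.16 to 0.11, PPID from -0.45 to 0.0759 and UNC45A from -0.25 to 0.14. The count of downstream windows was 7, against 13 as deposited and 11 to 44 when a library was left out (44 without heat shock 3). Leaving out a library can only keep or raise this count, so that range does not show how firm it is. The window of HSP90AA1 had a difference of 1.62 to 1.88 FPKM per base with a library left out and 2.75 as deposited. The other 335 values of single genes and ratios kept their direction and side of the threshold.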

Other observations

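Over the 6 libraries and 2917 genes averaging 10 FPKM or more, the genes whose log2 values with the common factor went most closely with HSP90AA1 were TMEM243 (r = 0.976), RCN2 (0.965) and MIEN1 (0.955). Those closest to HSP90AB1 were MRPS15 (0.976), MZT1 (0.970) and RPPH1 (0.967). These correlations are descriptions over libraries that share depth and composition, picked as the highest of many, and carry no test.

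Genes whose symbols mark them as relatives of a member had low values. The pseudogene HSP90AB4P had 0.068 to 0.292 FPKM in the 6 libraries, PTGES3L had 0 to 1.06 FPKM, and the readthrough gene PTGES3L-AARSD1 was listed at 0. How reads that such genes may share with a member were assigned is not given in the sources used here.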
